A study of Mus musculus with 9 samples.

Results

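SLC25 carriers are a family of transporters, most of them in the inner mitochondrial membrane. Their messages were followed here through the kidneys of mice given saline, endotoxin, or endotoxin with thymosin β4. The genes were taken by name: every symbol made of Slc25a and a number, with Ucp1, Ucp2 and Ucp3, whose FPKM (a fragment count corrected for transcript length and library depth) averaged at least 0.5 over all libraries. Of 34310 genes in the deposited table, 48 have such a name and 43 reached that level, and these 43 were tested among 15015 genes kept by the same limit. The 5 below it were Slc25a18 (mean 0.419 FPKM), Slc25a53 (0.371), Slc25a43 (0.191), Slc25a2 (0.111) and Slc25a31 (0.0188). The carriers just above it were Slc25a27 at 0.99 and Slc25a47 at 1.11 FPKM.

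The inner membrane keeps most metabolites from crossing, so each carrier moves a particular solute into or out of the matrix: ADP and ATP, phosphate, citric acid cycle acids, amino acids, cofactors, iron or, in the uncoupling proteins, protons and small anions. They are made in the cytosol from nuclear genes, and those of the inner membrane are inserted mainly by the TIM22 import route. Renal tubules, the proximal tubule above all, are packed with mitochondria and pay for solute reabsorption with oxidative ATP.

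The study compared fresh kidney tissue of 3 groups of 3 mice. One group received saline, one received LPS (lipopolysaccharide, a bacterial endotoxin) and one, labelled LPS+Tβ4, received LPS and thymosin β4, an actin-binding peptide. The study's title places the work in sepsis-associated acute kidney injury and MAPK signalling. Dose, route, time, strain, sex and age are not given in the labels, and there was no group given thymosin β4 alone, so LPS+Tβ4 can be compared with LPS but the peptide's effect without LPS was not analysed here.

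Libraries held 53 to 62 M counts, and log2 counts scaled by depth correlated at 0.8959 to 0.9806 between libraries of 1 group. Whole tissue was sequenced, so fewer cells of a type and less message per cell cannot be told apart. The labelled tissue had its defining messages: 6 proximal tubule markers summed to 1130 to 1430 FPKM with saline, 54.7 to 413 with LPS and 157 to 249 with LPS+Tβ4, and in edgeR 5 of the 6 fell with LPS and none passed between LPS+Tβ4 and LPS (1 at an unadjusted p below 0.05, 1 called by DESeq2 and 1 by limma). Other tissues' messages set some libraries apart. Saline libraries 2 and 3, LPS libraries 1 and 2 and LPS+Tβ4 library 3 carried 24.4 to 51.9 FPKM summed over 5 urothelial markers, against 0.479 to 1.33 in the other 4 libraries. Summed levels of 8 neuron and glia markers were 7.36 to 8.3 FPKM with saline, 3.59 to 24.8 with LPS and 67.9 to 93.1 with LPS+Tβ4, and 5 erythroid markers summed to 589 to 769, 621 to 788 and 220 to 311 FPKM. The part of these differences in the carrier results was not tested, except where a fit that carries the urothelial sum as a covariate is quoted.

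Mean levels of the 43 carriers ran from 0.99 to 303 FPKM. Slc25a5, which encodes adenine nucleotide translocase 2, averaged 303 FPKM over the 9 libraries and stood far above the glutathione carrier Slc25a39 at 92.5, the phosphate carrier Slc25a3 at 82.4, Slc25a4 (translocase 1) at 75.3 and the uncoupling protein Ucp2 at 55.4. Those 5 were the carriers at 50 FPKM or more, 20 lay between 10 and 50, 17 between 1 and 10, and 1 under 1. Added together, the carriers reached 1330 ± 63.2 FPKM with saline, 877 ± 103 with LPS and 1110 ± 84.6 with LPS+Tβ4 (SD, n = 3 here and below). The 3 groups did not overlap in this sum, which ran from 1260 to 1390, 757 to 938 and 1020 to 1190 FPKM. The FPKM of all genes also summed differently, to 415800 to 460200 with saline, 360200 to 404000 with LPS and 350600 to 390300 with LPS+Tβ4. The carrier sums were not scaled by these totals, and differences between the sums were not tested. Slc25a5 by itself supplied 32.7 ± 1.78% of it with saline, 21.4 ± 3.73% with LPS and 25.8 ± 2.33% with LPS+Tβ4. Without Slc25a5 the sums were 894 ± 56.3, 689 ± 86 and 824 ± 37.2 FPKM.

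**Figure D1:**
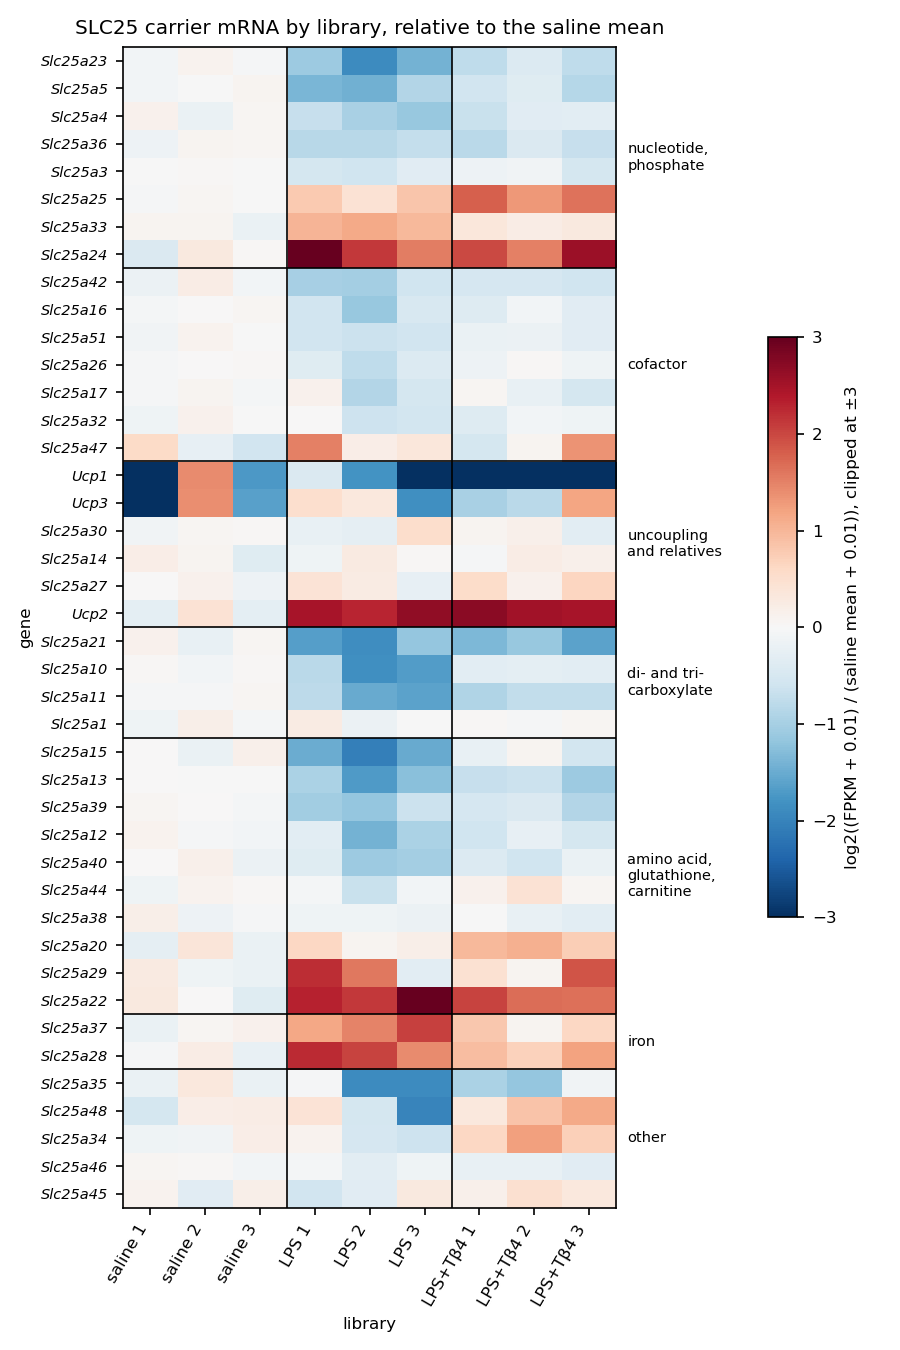
Each row is 1 of 42 of the carriers, grouped by what it carries, and each column 1 of the 9 libraries; colour gives the log2 ratio of FPKM to the saline mean, with 0.01 added to both and values clipped at 3 in either direction. Most rows turn towards lower levels in the LPS columns, while Ucp2, Slc25a22, Slc25a24, Slc25a28 and Slc25a37 turn the other way, and Ucp1 varies between the mice of each group.

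The first comparison asked what endotoxin did to these messages. With LPS, 19 carriers fell and 7 rose, 26 of 43 or 60.5%, where 43.1% of all 15015 genes passed the same test (22.2% lower and 20.9% higher). The test was edgeR's quasi-likelihood F test on counts, with Benjamini-Hochberg adjustment over all genes and a threshold of 0.05; "rose" and "fell" are used only for genes past it. The median log2 change of the carriers was -0.54, against 0.02 for all genes. FPKM ranges of LPS and saline lay apart for 25 carriers (58.1%), 18 below and 7 above saline, against 51.9% of all genes. By role, 5 of 8 nucleotide and phosphate carriers fell and the other 3 rose, 6 of 8 cofactor carriers fell, 3 of 4 di- and tricarboxylate carriers fell, 5 of 10 amino acid, glutathione and carnitine carriers fell and 1 rose, both iron carriers rose, and 1 of 6 uncoupling proteins and their relatives rose. None of the 5 carriers with another or no settled role passed in edgeR (2 at an unadjusted p below 0.05, 1 called by DESeq2 and none by limma). Ratios of FPKM ran higher than edgeR's fold changes by a median of 0.16 on the log2 scale across all genes in this comparison, so levels below are FPKM and changes are edgeR's, as log2 fold change ± SE.

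**Figure D2:**
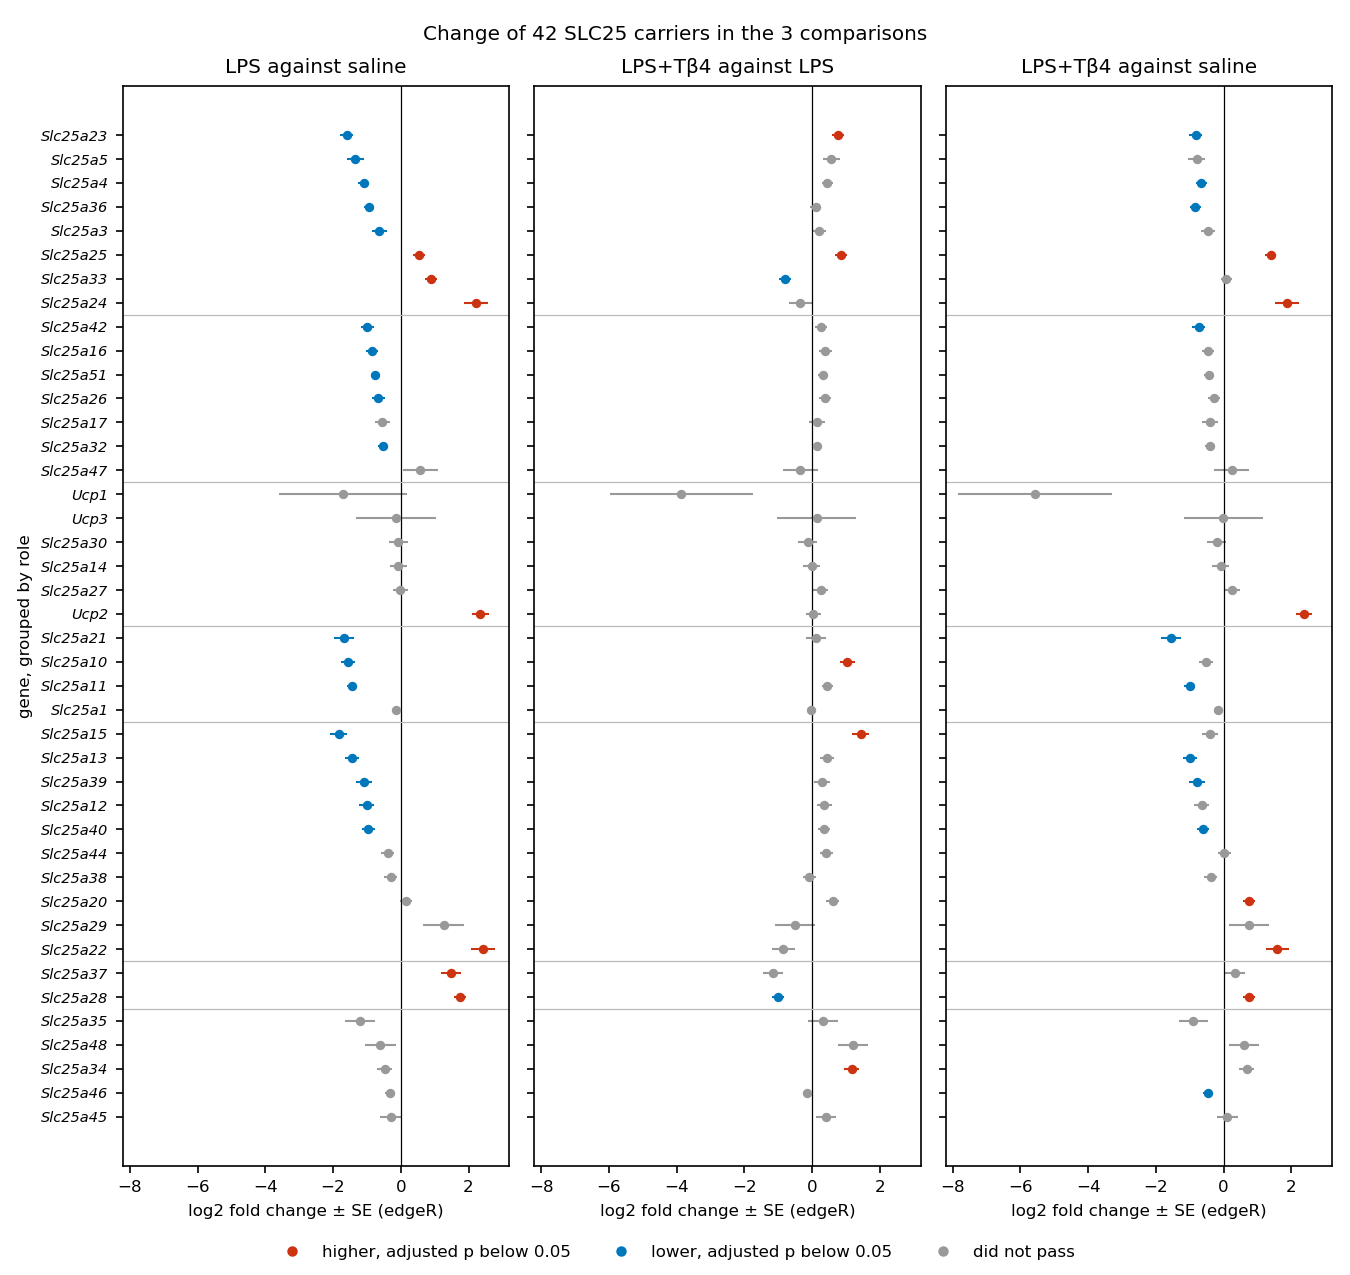
The 3 panels give the log2 fold change of each carrier with its SE from edgeR for LPS against saline, LPS+Tβ4 against LPS and LPS+Tβ4 against saline, for 42 of the 43 carriers in the same order. Red and blue mark adjusted p below 0.05: 18 lower and 7 higher, 2 lower and 5 higher, and 10 lower and 6 higher, from left to right; Ucp1 has the widest error bars.

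Adenine nucleotide translocases exchange matrix ATP for cytosolic ADP, and the phosphate carrier brings in the phosphate from which ATP is made. Slc25a5 (ENSMUSG00000016319, GRCm38 chromosome X, 36795651 to 36798807) stood at 409, 432 and 459 FPKM in the saline libraries, 168, 159 and 237 in the LPS libraries, and 290, 334 and 239 in the LPS+Tβ4 libraries. Every LPS library lay below every saline library, and LPS+Tβ4 lay between, with its lowest library, at 239, just above the highest LPS one. The fall with LPS was -1.34 ± 0.25 (adjusted p = 0.0036, edgeR). Slc25a4 (chromosome 8, 46206797 to 46211284) was 109, 86.3 and 103 FPKM with saline, 62.1, 50.5 and 45.3 with LPS, and 62.4, 78.2 and 80.3 with LPS+Tβ4. LPS libraries again lay below all saline libraries, and the change was -1.10 ± 0.16 (adjusted p = 0.0011). The ratio of Slc25a5 to Slc25a4 was 4.4 ± 0.633 with saline and 3.7 ± 1.35 with LPS, with overlapping ranges. Slc25a3 (chromosome 10, 91116574 to 91124059) was 95.5, 99.4 and 95.3 FPKM with saline, 66.6, 63.8 and 77 with LPS, and 86.8, 89.8 and 67.3 with LPS+Tβ4. LPS and saline did not overlap, while LPS+Tβ4 library 3 sat among the LPS values. Its fall of -0.63 ± 0.21 was close to the threshold (adjusted p = 0.037) and did not pass under 11 of 20 alternative settings, among them the fits without each of the 3 saline libraries, LPS library 1 or 2, or LPS+Tβ4 library 1 or 2.

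The calcium-regulated carriers Slc25a23, Slc25a24 and Slc25a25 exchange ATP-Mg for phosphate and so set the size of the matrix nucleotide pool, and they moved apart from one another. Slc25a23 (chromosome 17, 57043711 to 57059863) was 16, 18 and 16.5 FPKM with saline, 7.91, 4.56 and 6.27 with LPS, and 9.92, 12.7 and 9.91 with LPS+Tβ4. The groups did not overlap and LPS was lowest, with a fall of -1.60 ± 0.19 (adjusted p = 0.00039). Slc25a24 (chromosome 3, 109123149 to 109168457) went from 1.24, 2.06 and 1.7 FPKM with saline to 14.6, 7.35 and 4.85 with LPS and 6.6, 4.77 and 9.9 with LPS+Tβ4. All LPS libraries exceeded all saline libraries, though they differed widely among themselves, and the rise was 2.22 ± 0.36 (adjusted p = 0.0017). Slc25a25 (chromosome 2, 32414487 to 32451422) was 7.26, 7.78 and 7.37 FPKM with saline, 12.9, 10.1 and 13.3 with LPS, and 26, 18.5 and 23.2 with LPS+Tβ4. No group overlapped another, and its level was highest with LPS+Tβ4; the rise from saline to LPS was 0.54 ± 0.17 (adjusted p = 0.033) and did not pass without saline library 1, 2 or 3 or LPS library 3. The 3 together came to 26 ± 1.73 FPKM with saline and 27.3 ± 7.12 with LPS, but Slc25a23 made up 64.8 ± 0.353% of that sum with saline and 22.9 ± 2.54% with LPS. The share of Slc25a24 was 6.37 ± 1.18% and 31.5 ± 10.8%, and that of Slc25a25 28.8 ± 0.882% and 45.6 ± 9.07%.

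**Figure D3:**
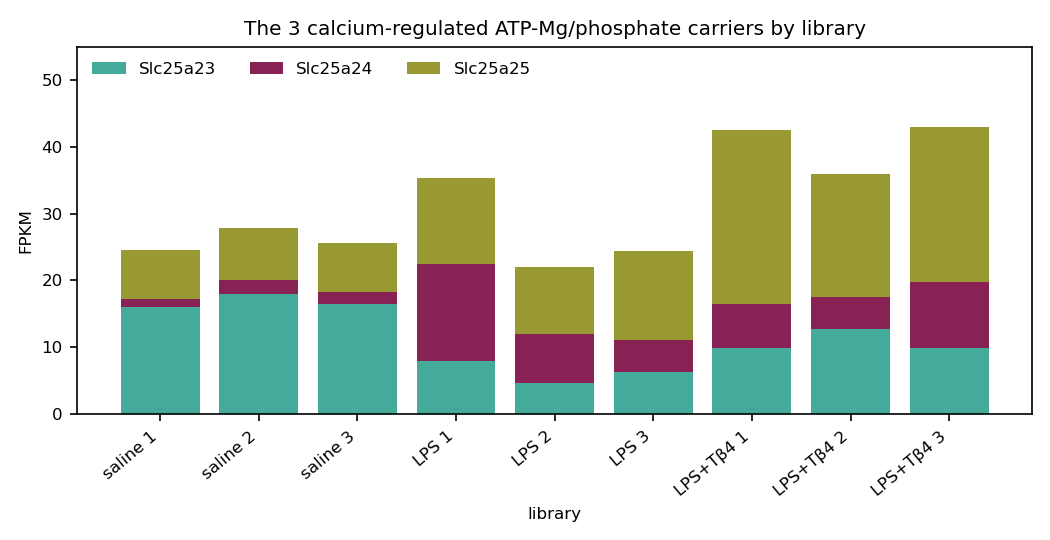
Stacked bars give the FPKM of Slc25a23, Slc25a24 and Slc25a25 in each of the 9 libraries, in the order saline, LPS and LPS+Tβ4. The total is 24.5 to 27.9 with saline, 22.1 to 35.4 with LPS and 36 to 43.1 with LPS+Tβ4, and Slc25a23 is the main layer with saline only.

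The pyrimidine nucleotide carriers also parted. Slc25a33 (chromosome 4, 149744036 to 149774277) stood at 4.99, 4.96 and 4.1 FPKM with saline, 9.47, 10.3 and 9.14 with LPS, and 5.98, 5.48 and 5.73 with LPS+Tβ4. All LPS values lay above the others, and the rise was 0.89 ± 0.17 (adjusted p = 0.004). Slc25a36, its close relative, was 13.2 ± 1.23 FPKM with saline and 7.59 ± 0.357 with LPS, a fall of -0.94 ± 0.16 (adjusted p = 0.002).

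Among the uncoupling proteins, Ucp2 gave the clearest value. UCP2 is widely expressed and is known as an exporter of C4 acids from the matrix as well as for a debated proton leak. Ucp2 (ENSMUSG00000033685, chromosome 7, 100493337 to 100502020) stood at 10.9, 18.1 and 10.9 FPKM with saline, 74.4, 64.9 and 83.7 with LPS, and 86.7, 75.8 and 73.6 with LPS+Tβ4. The LPS and LPS+Tβ4 libraries interleaved, and both groups lay far above saline. Its rise with LPS was 2.35 ± 0.24, or 5.1-fold (adjusted p = 0.00021), and it passed in all 20 alternatives. Ucp3 lies 6904 bases upstream on the same strand (chromosome 7, 100472990 to 100486432) and did not pass, with 1.11 ± 1.58 FPKM with saline and 1.09 ± 0.69 with LPS (change -0.14 ± 1.18, adjusted p = 0.94). An exon of Ucp2 shares 305 bases with an exon of Dnajb13 on the other strand in GENCODE M21. In all, 12 carriers have an exon overlapped in this way, 7 of them by a protein-coding gene (Slc25a11, Slc25a21, Slc25a25, Slc25a26, Slc25a35, Slc25a46 and Ucp2) and the rest, Slc25a10, Slc25a23, Slc25a33 and Slc25a37 among them, by other transcripts. Whether counting used strand is not given in the sources used here, and without it reads of the overlapped stretches cannot be told apart. Slc25a30, known as kidney mitochondrial carrier 1, was 25.8, 28.8 and 28.2 FPKM with saline, 23.6, 23 and 39.7 with LPS, and 29.4, 30.6 and 22.2 with LPS+Tβ4. Its groups overlapped, and the change with LPS was -0.07 ± 0.28 (adjusted p = 0.86). Slc25a27 (UCP4) was 0.856, 0.935 and 0.763 FPKM with saline, 1.13, 1.01 and 0.718 with LPS, and 1.25, 0.926 and 1.33 with LPS+Tβ4, and Slc25a14 averaged 2.08 to 2.27 FPKM in the 3 groups. Neither passed in any comparison.

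Ucp1, the thermogenic proton carrier of brown fat, varied widely between mice of 1 group. It was at 0.804, 90.3 and 10.3 FPKM in the saline libraries, 25, 9.78 and 0.0565 in the LPS libraries, and 0, 0.266 and 2.19 in the LPS+Tβ4 libraries. Values within saline alone ran from under 1 to 90.3, and no comparison passed (LPS against saline -1.71 ± 1.9, adjusted p = 0.49; LPS+Tβ4 against saline -5.57 ± 2.27, adjusted p = 0.11, edgeR), although DESeq2 called the last. Of the 5 other brown fat genes on the marker list, 3 varied between the same mice: Cidea, a lipid droplet protein, was 0.53, 65 and 8.73 FPKM with saline, 13.9, 24.7 and 0.207 with LPS, and 0.133, 0.364 and 5.16 with LPS+Tβ4. Cox8b, a cytochrome oxidase subunit of brown fat and muscle, was 0, 23.8 and 6.38, then 4.28, 34.2 and 0, and then 0, 1.11 and 18.1 FPKM. Adipoq, the adipocyte hormone adiponectin, was 0.292, 26 and 5.29, then 6.55, 14.2 and 0, and then 0, 0.669 and 15.8 FPKM. The 4 libraries lowest in Ucp1, Cidea, Cox8b and Adipoq were the 4 poor in urothelial markers. The other 2 genes of the list were ordered otherwise. Cox7a1, a cytochrome oxidase subunit, was 11.2, 15.7 and 8.84 FPKM with saline, 2.32, 13.8 and 1.63 with LPS, and 1.56, 1.55 and 6.35 with LPS+Tβ4, so that saline library 1 was above saline library 3 while LPS library 1, with Ucp1 at 25, was among the low ones. Elovl3, a fatty acid elongase, was at or below 1 FPKM in every library and lower in LPS library 2 (0.0657) than in saline library 1 (0.0667). The level of Ucp1 relative to Cidea differed between libraries, with 90.3 against 65 FPKM in saline library 2 and 2.19 against 5.16 in LPS+Tβ4 library 3.

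**Figure D4:**
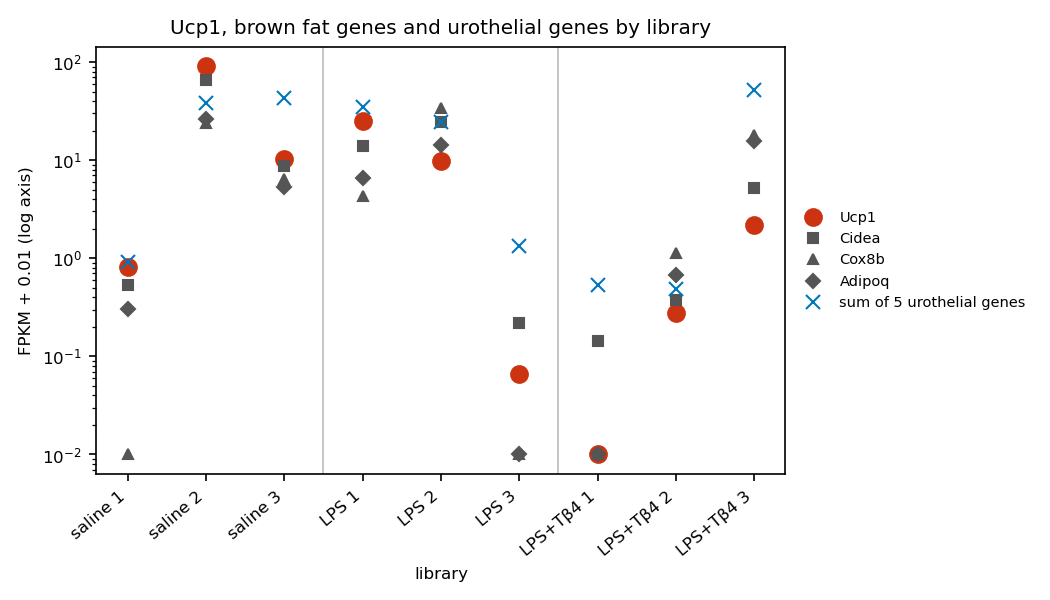
Points give FPKM plus 0.01 on a log axis for Ucp1, 3 of the 5 brown fat genes (Cidea, Cox8b and Adipoq), and the sum of 5 urothelial markers in each library, with grey lines between the groups. Ucp1 is at 9.78 FPKM or more in saline libraries 2 and 3 and LPS libraries 1 and 2, and at 2.19 or less in the other 5 libraries.

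The di- and tricarboxylate carriers link the citric acid cycle with the cytosol. Slc25a10 (chromosome 11, 120491840 to 120499187), which exchanges malate and succinate for phosphate, was 68.7, 63.1 and 69.2 FPKM with saline, 38.3, 18.6 and 21.1 with LPS, and 53.4, 54.5 and 53.6 with LPS+Tβ4. The 3 groups were apart, and the fall with LPS was -1.56 ± 0.21 (adjusted p = 0.00076). The 2-oxoglutarate carrier Slc25a11 (chromosome 11, 70644196 to 70647058) was 53.5, 53.3 and 56.5 FPKM with saline, 31.6, 19 and 18 with LPS, and 29.3, 32.7 and 32.6 with LPS+Tβ4. LPS and LPS+Tβ4 overlapped and both lay below saline, with a change of -1.44 ± 0.16 with LPS (adjusted p = 0.00032). Slc25a21, the oxodicarboxylate carrier of lysine and tryptophan breakdown, was low throughout, at 3.61, 2.82 and 3.41 FPKM with saline, 1.03, 0.891 and 1.47 with LPS, and 1.29, 1.48 and 1.07 with LPS+Tβ4. Its fall was -1.68 ± 0.29 (adjusted p = 0.0024). The citrate carrier Slc25a1 did not pass: it was 34.1, 42.4 and 36 FPKM with saline, 44.4, 33 and 36.9 with LPS, and 38.2, 36.6 and 39.3 with LPS+Tβ4, and its change with LPS was -0.14 ± 0.11 (adjusted p = 0.34). The difference between it and the other carriers of its role was not tested.

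Among the amino acid carriers, the ornithine carrier of the urea cycle and the glutamate carrier went in opposite directions. Slc25a15 (ENSMUSG00000031482, chromosome 8, 22375551 to 22398597), the ornithine carrier, was 29.3, 25.1 and 32.3 FPKM with saline, 10.3, 6.94 and 10.1 with LPS, and 24.6, 30.8 and 19.8 with LPS+Tβ4. LPS lay below both other groups, which overlapped, and its fall of -1.83 ± 0.25 (3.56-fold lower, adjusted p = 0.00078) was the lowest change of the 43 in this comparison. Slc25a22 (ENSMUSG00000019082, chromosome 7, 141429744 to 141437892), which brings glutamate into the matrix, was 4.46, 3.62 and 2.79 FPKM with saline, 18.1, 15.7 and 31.1 with LPS, and 14.8, 11.5 and 11.4 with LPS+Tβ4. All LPS libraries exceeded all others, and its rise of 2.43 ± 0.35 (5.4-fold, adjusted p = 0.00096) was the highest of the 43. The aspartate-glutamate carriers serve the malate-aspartate shuttle: Slc25a13 (citrin) was 26.3, 25.8 and 25.5 FPKM with saline, 13.5, 7.94 and 10.9 with LPS, and 16, 16.5 and 12.1 with LPS+Tβ4. It fell by 1.43 on the log2 scale (SE 0.21, adjusted p = 0.0011), and its relative Slc25a12 (aralar) fell from 8.65 ± 0.581 to 4.89 ± 1.87 FPKM (-1.01 ± 0.22, adjusted p = 0.0071). Citrin was 3 ± 0.153 times as abundant as aralar with saline and 2.27 ± 0.282 times with LPS.

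Glutathione reaches the matrix through Slc25a39 and Slc25a40, and both fell. Slc25a39 (chromosome 11, 102402985 to 102407544) was 127 ± 4.75 FPKM with saline and 66.5 ± 12.7 with LPS (-1.08 ± 0.23, adjusted p = 0.0067). Slc25a40 was 1.52, 1.66 and 1.33 FPKM with saline, 1.17, 0.703 and 0.734 with LPS, and 1.12, 0.983 and 1.31 with LPS+Tβ4, and fell by 0.96 on the log2 scale with LPS (SE 0.19, adjusted p = 0.0042). LPS values of both lay below all saline values. The carnitine-acylcarnitine carrier Slc25a20, which admits long-chain fatty acids for oxidation, was 11.2 ± 2.9 FPKM with saline and 13.9 ± 2.84 with LPS and did not pass (0.15 ± 0.18, adjusted p = 0.53). Slc25a29, a carrier of basic amino acids, was 0.88 ± 0.167 and 2.5 ± 1.72 FPKM (1.27 ± 0.60, adjusted p = 0.12), and passed only in the fit without LPS library 3 among the 19 alternatives that tested it. The glycine carrier Slc25a38 (-0.30 ± 0.19) and the branched-chain amino acid carrier Slc25a44 (-0.39 ± 0.19) did not pass.

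Cofactor carriers supply the matrix enzymes with coenzyme A, NAD, folate, S-adenosylmethionine and the like. Slc25a42, which carries coenzyme A, was 11, 14.5 and 11.9 FPKM with saline, 6.23, 6.13 and 8.31 with LPS, and 8.88, 8.75 and 8.28 with LPS+Tβ4, and fell by 0.99 on the log2 scale with LPS (SE 0.19, adjusted p = 0.0038). Slc25a51, the NAD carrier, was 31.6, 36.7 and 33.8 FPKM with saline, 22.9, 21.8 and 22.8 with LPS, and 29.7, 30.4 and 26.8 with LPS+Tβ4. Its LPS libraries sat close together below all others, a fall of -0.75 ± 0.14 (adjusted p = 0.0034). Slc25a16 was 22.5, 23.4 and 24.2 FPKM with saline, 15.7, 10.7 and 16.9 with LPS, and 17.8, 22.2 and 18.5 with LPS+Tβ4 (-0.85 ± 0.19, adjusted p = 0.0082). The S-adenosylmethionine carrier Slc25a26 fell by 0.66 (adjusted p = 0.017) and the folate and FAD carrier Slc25a32 by 0.53 (adjusted p = 0.016) on the log2 scale. Neither of these passed without saline library 1 or 3 or LPS library 2. The peroxisomal carrier Slc25a17 (-0.54 ± 0.23, adjusted p = 0.09) and Slc25a47 (0.58 ± 0.52, adjusted p = 0.39) did not pass.

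Both mitoferrins, the iron importers that feed heme and iron-sulfur cluster synthesis, rose. Slc25a28 (mitoferrin 2, ENSMUSG00000040414, chromosome 19, 43663801 to 43674860), the form known outside the red cell lineage, was 8.16, 9.69 and 7.19 FPKM with saline, 39.2, 34.3 and 22.2 with LPS, and 15.8, 13.5 and 19.3 with LPS+Tβ4. The 3 groups were apart, with LPS highest, and the rise was 1.76 ± 0.18 (3.39-fold, adjusted p = 0.00025). Slc25a37 (mitoferrin 1, chromosome 14, 69241848 to 69285112), known from developing red cells, was 5.31, 6.28 and 6.61 FPKM with saline, 13.6, 16.9 and 25.2 with LPS, and 10.6, 6.45 and 9.39 with LPS+Tβ4. LPS lay above both other groups, which overlapped, and the rise was 1.49 ± 0.30 (adjusted p = 0.0049). Their sum was 13.5 to 16 FPKM with saline and 47.4 to 52.7 with LPS, steadier between the LPS mice than either gene, since Slc25a28 was highest in library 1 and Slc25a37 in library 3. None of the 5 erythroid markers passed between LPS and saline in edgeR (0 at an unadjusted p below 0.05), DESeq2 or limma, and their median change was -0.05.

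**Figure D5:**
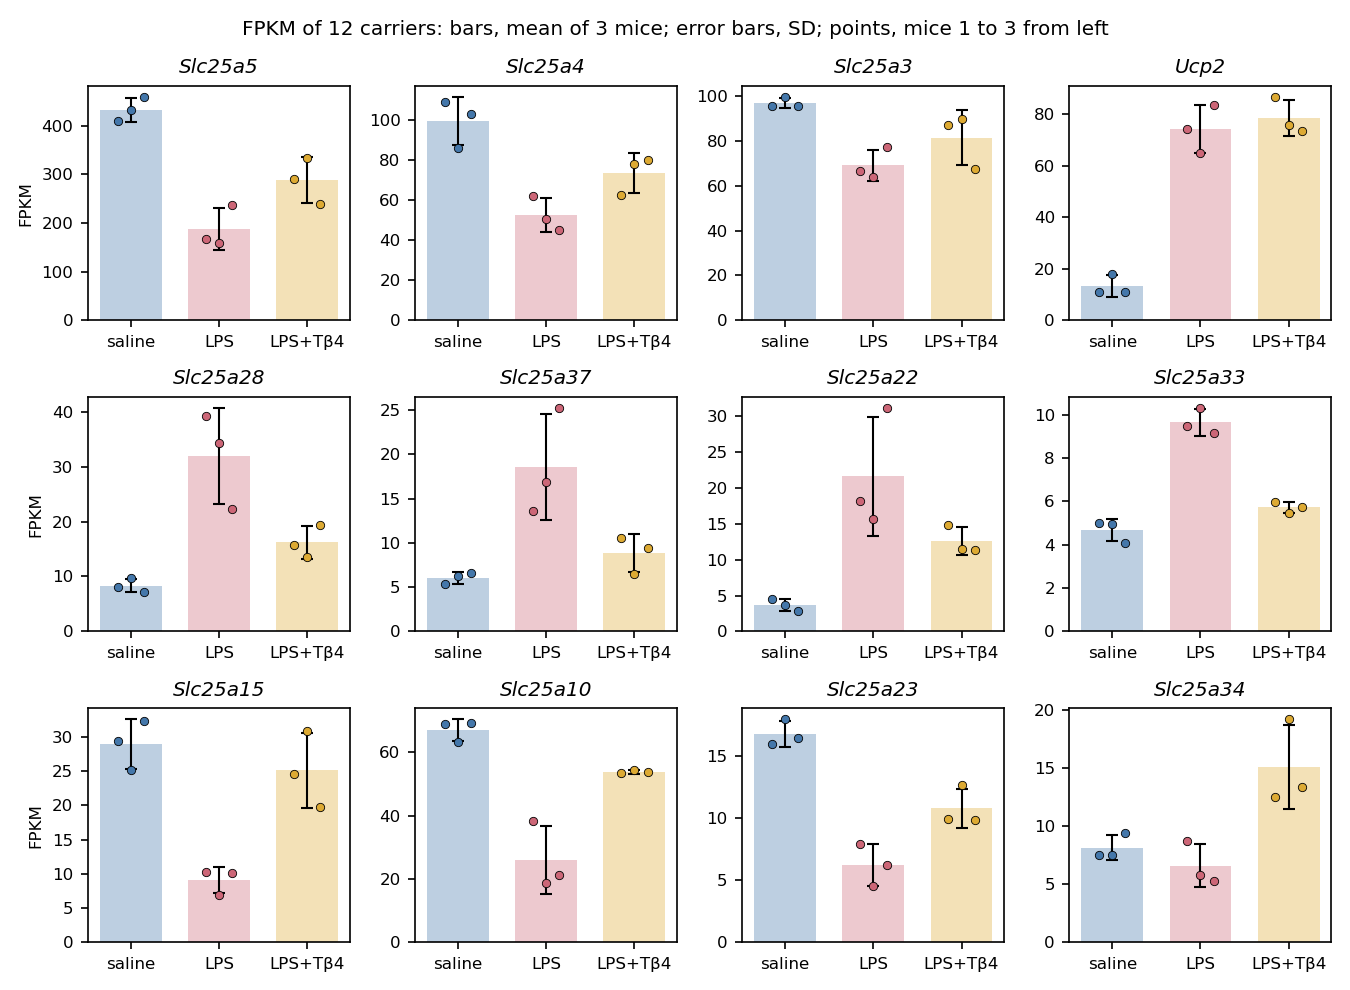
Bars give the mean FPKM of 3 mice per group, error bars the SD and points the single mice for 12 carriers, each panel on its own axis from 0. Slc25a5, Slc25a4, Slc25a3, Slc25a15, Slc25a10 and Slc25a23 are lowest with LPS; Ucp2, Slc25a28, Slc25a37, Slc25a22 and Slc25a33 are higher with LPS than with saline, and Ucp2 stands at 78.7 ± 7.01 with LPS+Tβ4 beside 74.4 ± 9.42 with LPS.

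Of the 5 carriers with another or no settled role, none passed between LPS and saline in edgeR (2 at an unadjusted p below 0.05) or limma, and DESeq2 called 1 lower. Slc25a34 (chromosome 4, 141618824 to 141623821) was 7.51, 7.54 and 9.39 FPKM with saline, 8.73, 5.79 and 5.32 with LPS, and 12.5, 19.2 and 13.4 with LPS+Tβ4, and its change with LPS was -0.48 ± 0.22 (adjusted p = 0.1). Slc25a35 was 4.79, 6.84 and 4.75 FPKM with saline, 5.29, 1.47 and 1.48 with LPS, and 2.83, 2.44 and 5.04 with LPS+Tβ4. LPS library 1 lay among the saline values and the other 2 far below (-1.21 ± 0.44, adjusted p = 0.054), and without that library the fall passed; 1151 bases of its exons are shared with Rangrf on the other strand. Slc25a48 was 7.35, 12.1 and 12.3, then 14.2, 7.35 and 2.66, and then 13.3, 19.2 and 23.4 FPKM. LPS overlapped both other groups, while in FPKM every LPS+Tβ4 library lay above every saline library, narrowly, at 13.3 against 12.3. No comparison passed in edgeR, and DESeq2 called LPS+Tβ4 against LPS. Slc25a46, an outer membrane protein of the family that takes part in mitochondrial shape, was 10.4, 10.3 and 9.42 FPKM with saline, 9.64, 8.06 and 9.08 with LPS, and 8.56, 8.6 and 7.85 with LPS+Tβ4 (-0.33 ± 0.13 with LPS, adjusted p = 0.08). Slc25a45 was 13.1 ± 2.45, 11.7 ± 3.88 and 16.4 ± 1.81 FPKM.

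The second comparison asked how kidneys given thymosin β4 with LPS differed from those given LPS. Between these groups 6 carriers rose and 2 fell, 8 of 43 or 18.6%, where 6.83% of all genes passed (4.5% higher and 2.33% lower). The median log2 change of the carriers was 0.26, against -0.01 for all genes. FPKM ranges lay apart for 17 carriers (39.5%), 13 above and 4 below LPS, against 24.7% of all genes. Those that rose included the ornithine carrier Slc25a15, Slc25a34, the dicarboxylate carrier Slc25a10 and the ATP-Mg/phosphate carriers Slc25a25 and Slc25a23, and those that fell were mitoferrin 2, Slc25a28, and the pyrimidine nucleotide carrier Slc25a33. This comparison and the first one share the LPS libraries, so their values are not independent.

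Among them, Slc25a15 rose most (1.43 ± 0.25, 2.69-fold, adjusted p = 0.02, edgeR), beside Slc25a34 (1.17 ± 0.22, adjusted p = 0.024). Slc25a10 rose by 1.04 ± 0.21 (adjusted p = 0.029), and its LPS+Tβ4 libraries differed by about 1 FPKM unit around a mean of 53.8 ± 0.587. Slc25a25 rose by 0.85 ± 0.17 (adjusted p = 0.03) and Slc25a23 by 0.76 ± 0.18 (adjusted p = 0.045). Slc25a24 did not pass (-0.35 ± 0.34, adjusted p = 0.57). The summed ATP-Mg/phosphate carriers came to 40.5 ± 3.94 FPKM with LPS+Tβ4, with Slc25a25 at 55.5 ± 4.98% of that sum. Slc25a28 fell by 1.02 on the log2 scale (SE 0.18, adjusted p = 0.022) and Slc25a33 by 0.80 (SE 0.17, adjusted p = 0.034). Slc25a37 had a larger difference than either and did not pass (-1.16 ± 0.30, adjusted p = 0.057), although its LPS+Tβ4 libraries lay below all LPS libraries, and it passed in 5 of 20 alternatives. The mitoferrin sum with LPS+Tβ4 was 25 ± 4.55 FPKM, between saline and LPS. Beside these values, all 5 erythroid markers fell between LPS and LPS+Tβ4, with a median change of -1.52, and the part of red cell messages in the mitoferrin values was not tested.

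Each of these 8 calls was lost in some of the alternative fits. All 8 failed to pass without LPS library 2, LPS+Tβ4 library 1 or LPS+Tβ4 library 2, and in a fit of the 6 libraries compared. Slc25a15 and Slc25a28 were lost in 5 of 20 alternatives and Slc25a34 in 6, and these 3 passed without any 1 of the saline libraries. The calls of Slc25a25 (lost in 9), Slc25a10 (10), Slc25a33 (11) and Slc25a23 (14) were lost when any 1 saline library was left out, although saline enters this comparison only through the shared fit. Carriers called higher numbered 2 without saline library 1, 2 or 3, 3 without LPS library 3, 5 without LPS+Tβ4 library 3 and 9 without LPS library 1. With the urothelial sum as a covariate 4 rose and 3 fell: Slc25a22 joined the calls and Slc25a23 was among those that left them.

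Several other carriers did not pass between LPS+Tβ4 and LPS. With LPS+Tβ4 the means of Slc25a5, Slc25a4 and Slc25a22 lay between those of saline and LPS, while Slc25a20, Slc25a48 and Ucp2 had their highest means there. Slc25a5 was 288 ± 47.4 FPKM with LPS+Tβ4 against 188 ± 42.7 with LPS (0.56 ± 0.25, adjusted p = 0.21), and Slc25a4 was 73.6 ± 9.8 against 52.6 ± 8.65 (0.44 ± 0.16, adjusted p = 0.13). The FPKM ranges of LPS and LPS+Tβ4 did not overlap for either, but the Slc25a4 values of 62.1 and 62.4 nearly touched. Slc25a20 was 22, 23.6 and 18.7 FPKM with LPS+Tβ4 against 17.1, 11.9 and 12.6 with LPS, apart but not past the threshold (0.60 ± 0.18, adjusted p = 0.086). Slc25a22 (-0.85 ± 0.33, adjusted p = 0.15) did not pass, nor did Slc25a48 (1.21 ± 0.45, adjusted p = 0.14). The difference in Ucp2 was 0.03 ± 0.22 (adjusted p = 0.95).

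Slc25a25 and Slc25a34 had their 3 highest levels in the LPS+Tβ4 libraries, as did Slc25a20, whose sequence is not shown. The sequence before a start is given for Slc25a25 and Slc25a34, and each window shown holds a motif match. Slc25a25 has 3 starts, and only the window with the match is printed. Both sequences come from RefSeq on GRCm38.p6 and run 5′ to 3′ on the minus strand. They end at the base before the start and hold no annotated exon. Capitals mark a match to a motif searched on both strands. In Slc25a25 it is TGACGTCA, the cyclic AMP response element, at -150 from the start of a shorter transcript, 27356 bases inside the gene (chr2:32424067-32424316). In Slc25a34 it is TGACCTT, the reverse complement of the estrogen-related receptor half-site AAGGTCA, at -119 (chr4:141623835-141624084).
Slc25a25: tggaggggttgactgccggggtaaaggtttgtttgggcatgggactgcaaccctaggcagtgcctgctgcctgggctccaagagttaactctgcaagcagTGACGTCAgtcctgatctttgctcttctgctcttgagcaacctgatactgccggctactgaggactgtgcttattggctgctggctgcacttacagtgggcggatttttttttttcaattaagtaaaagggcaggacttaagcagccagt
Slc25a34: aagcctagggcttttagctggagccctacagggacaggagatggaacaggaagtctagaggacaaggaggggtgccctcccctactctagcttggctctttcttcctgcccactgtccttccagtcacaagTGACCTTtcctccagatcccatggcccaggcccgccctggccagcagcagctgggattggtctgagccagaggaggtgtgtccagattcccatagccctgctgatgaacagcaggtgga
The 34 carriers found by symbol in the RefSeq table had 43 starts with 250 bases before each. TGACGTCA was in 2 of those 43 windows (4.65%; Slc25a25 and Slc25a36) and in 1.55% of 32851 windows of all genes. Unlike Slc25a25, Slc25a36 was highest with saline, at 13.2 FPKM against 7.59 with LPS and 8.48 with LPS+Tβ4. AAGGTCA was in 1 (2.33%, Slc25a34) against 4.08%. These are matches of letters and no measure of binding.

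The third comparison set LPS+Tβ4 against saline. Here 10 carriers fell and 6 rose, 16 of 43 or 37.2%, where 24.1% of all genes passed (11.8% lower and 12.3% higher). The carriers' median log2 change was -0.40 against 0 for all genes, and FPKM ranges lay apart for 26 carriers (60.5%) against 51.1% of all genes. Ratios of FPKM ran higher than edgeR's fold changes here by a median of 0.21 on the log2 scale across all genes. This comparison shares the saline libraries with the first and the LPS+Tβ4 libraries with the second. Ucp2 (2.38 ± 0.24, 5.21-fold, adjusted p = 5e-04), Slc25a24 (1.87 ± 0.36, adjusted p = 0.0068), Slc25a22 (1.58 ± 0.34, adjusted p = 0.011) and Slc25a25 (1.39 ± 0.17, adjusted p = 0.0013) rose. So did Slc25a28 and Slc25a20, by 0.75 ± 0.18 each (adjusted p = 0.019), but Slc25a28 did not pass without saline library 3 or LPS+Tβ4 library 1 or 3, nor Slc25a20 without saline library 1 or 3 or LPS+Tβ4 library 1 or 2.

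Carriers below saline in both endotoxin groups included the carboxylate carriers Slc25a21 (-1.56 ± 0.29, adjusted p = 0.0065) and Slc25a11 (-1.0 ± 0.16, adjusted p = 0.0033) and citrin, Slc25a13 (-0.99 ± 0.21, adjusted p = 0.0099). Slc25a36 was 8.48 ± 1.18 FPKM with LPS+Tβ4 (-0.84 ± 0.16, adjusted p = 0.0066), and Slc25a23 fell by 0.83 (SE 0.18, adjusted p = 0.012) but did not pass without LPS+Tβ4 library 1. The other 5 that fell, Slc25a39, Slc25a42, Slc25a4, Slc25a40 and Slc25a46, changed by -0.79 to -0.47 and were each lost in 7 to 13 of the 19 or 20 alternatives that tested them, among them the fits without saline library 1 or 3 or LPS+Tβ4 library 1 or 3. Without LPS library 1 the number lower was 16, and without saline library 1, 2 or 3 it was 5, 6 and 5. Without LPS+Tβ4 library 1, 2 or 3 it was 4, 6 and 5. Slc25a5 did not pass (-0.79 ± 0.25, adjusted p = 0.053), although it passed in 6 of 20 alternatives. Its LPS+Tβ4 libraries, at 239 to 334 FPKM, lay below all saline libraries, at 409 to 459. Slc25a15 (-0.41 ± 0.24, adjusted p = 0.26), Slc25a10 (-0.52 ± 0.21, adjusted p = 0.1), Slc25a33 (0.08 ± 0.17, adjusted p = 0.76) and Slc25a37 (0.34 ± 0.30, adjusted p = 0.45) did not pass either, which does not show that their levels were those of saline.

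Genes that work with the carriers were counted from 6 lists, to be read beside the share of all genes that passed: 43.1% between LPS and saline (20.9% higher and 22.2% lower), 6.83% between LPS+Tβ4 and LPS and 24.1% between LPS+Tβ4 and saline. Of 13 genes of the TIM22 import route, 6 fell with LPS and none rose (46.2% called, near the share of all genes; median -0.27), among them the small chaperones Timm8b (-1.36 ± 0.23, adjusted p = 0.0019) and Timm9 (-1.10 ± 0.19, adjusted p = 0.0022) and the channel Timm22 (-0.69 ± 0.16, adjusted p = 0.0081). None passed between LPS+Tβ4 and LPS in edgeR or DESeq2 (1 at an unadjusted p below 0.05, and 1 called by limma), and 2 were below saline with LPS+Tβ4. Of 19 other mitochondrial channels and carriers, 11 fell with LPS and none rose (57.9% called; median -0.80). The serine carrier Sfxn1 was 18.8 ± 0.8 FPKM with saline, 6.55 ± 0.812 with LPS and 12.2 ± 0.209 with LPS+Tβ4: it fell by 1.67 on the log2 scale with LPS (SE 0.17, adjusted p = 2e-04) and was 0.84 ± 0.16 higher with LPS+Tβ4 than with LPS (adjusted p = 0.027). Abcb8, a subunit of the ATP-sensitive potassium channel of mitochondria, fell with LPS (-1.28 ± 0.15) and rose between LPS and LPS+Tβ4 (0.74 ± 0.15, adjusted p = 0.031). Of these 2 rises, that of Sfxn1 was lost in 7 and that of Abcb8 in 12 of 20 alternatives. In all, 3 of the 19 (15.8%) rose and none fell between LPS and LPS+Tβ4 in edgeR, and DESeq2 called 6 higher.

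Of 10 enzymes of the malate-aspartate, citrate and glycerol phosphate shuttles, 6 fell with LPS and none rose (60% called, against 43.1% of all genes; median -0.64). Gpd1, the cytosolic glycerol phosphate dehydrogenase, changed by -2.10 ± 0.40 (adjusted p = 0.0037), malic enzyme Me1 by -1.56 ± 0.24 (adjusted p = 0.0013), and the malate dehydrogenase Mdh1 by -1.36 ± 0.22 (adjusted p = 0.0016). In edgeR none passed between LPS+Tβ4 and LPS (1 at an unadjusted p below 0.05, 1 called by DESeq2 and none by limma), and 5 were below saline with LPS+Tβ4. Of 6 carnitine shuttle genes 3 fell with LPS (50% called, near the 43.1% of all genes), the acyl-CoA synthetase Acsl1 (-0.84 ± 0.17, adjusted p = 0.0049), the carnitine importer Slc22a5 (-1.0 ± 0.24, adjusted p = 0.0097) and Cpt1b (-1.15 ± 0.37, adjusted p = 0.035). Limma called 2 of the 6 lower, and FPKM ranges of LPS and saline lay apart for 1 of the 6. Cpt1b was 4.73, 14.5 and 5.17 FPKM with saline and 5.44, 3.73 and 2.98 with LPS, so its groups overlapped. Its highest library, saline library 2, was also the highest in Ucp1. Between LPS+Tβ4 and LPS no gene of this list passed in edgeR (2 at an unadjusted p below 0.05), DESeq2 or limma.

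Of 10 genes of mitochondrial iron use, 2 rose and 3 fell with LPS (50% called, near the 43.1% of all genes). Heme oxygenase Hmox1 was 17.3 ± 0.914 FPKM with saline, 207 ± 121 with LPS and 166 ± 83.6 with LPS+Tβ4 (3.46 ± 0.54 with LPS, adjusted p = 0.0014), and Alas1, the first enzyme of heme synthesis outside red cells, was 15.7 ± 1.36, 56.9 ± 24.8 and 76.8 ± 7.57 FPKM (1.74 ± 0.37, adjusted p = 0.0059). The cysteine desulfurase Nfs1 (-0.77 ± 0.23, adjusted p = 0.026) and the iron importer Slc11a2 (-0.86 ± 0.27, adjusted p = 0.029) fell. The transferrin receptor Tfrc was 19.5, 13.7 and 19 FPKM with saline, 19.5, 9.77 and 10.8 with LPS, and 31, 32.9 and 29.4 with LPS+Tβ4. It was the only gene of this list to pass between LPS+Tβ4 and LPS in edgeR (DESeq2 called 2 higher and limma 1), a rise of 1.21 ± 0.25 (adjusted p = 0.031) that was lost in 7 of 20 alternatives, with LPS+Tβ4 above every other library. Of 7 regulators of mitochondrial genes 3 passed with LPS (42.9%, beside 43.1% of all genes): Ppargc1a (10.2 ± 1.92 FPKM with saline, 2.8 ± 1.04 with LPS, 4.28 ± 1.15 with LPS+Tβ4), Esrra and Ppara fell with LPS, with log2 changes of -2.05 ± 0.26 (adjusted p = 0.00055), -1.20 ± 0.38 (0.033) and -0.95 ± 0.30 (0.031). With LPS, limma called 1 of the 7 lower, and DESeq2 called 3 lower and 1 higher. Ppara overlapped between saline (4.94, 9.82 and 9.09 FPKM) and LPS (4.59, 3.22 and 5.68). Esrra was 15.4 FPKM in LPS library 1, beside 15.8 in the lowest saline library. No regulator passed between LPS+Tβ4 and LPS in edgeR (3 at an unadjusted p below 0.05), DESeq2 or limma.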

How the data were processed

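From each of 9 mice, kidney poly(A) RNA was made into 1 stranded library and sequenced in pairs. The submitters' processing notes name cutadapt 1.9, HISAT2 2.2.1, StringTie 2.1.6, DESeq2, edgeR and the build GRCm38; not given in the sources used here are the counting program, its use of strand and the annotation. Per gene, the deposited table holds raw counts and FPKM that the authors made (34310 genes). All of its per-sample columns were used.

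Levels are the authors' FPKM. Changes were computed from the deposited counts with edgeR 4.0.16 (R 4.3.3) for genes whose FPKM averaged at least 0.5: TMM scaling, quasi-likelihood F tests (2-sided) in 1 model of the 3 groups, and Benjamini-Hochberg adjustment over 15015 genes at 0.05. The SE is the size of the log2 change divided by the square root of F. On data simulated from these libraries with 200 changed genes among 15015, 68.2%, 66.7% and 62.1% of 4-fold and 14.9%, 14.9% and 11.9% of 2-fold changes were recovered in the 3 comparisons, in the order reported, with 6, 2 and 5 false calls. The data had more genes called (6473, 1025 and 3617), and fewer changed genes make the adjusted threshold stricter. The simulated shares are therefore not the recovery in these comparisons.

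Every carrier past the level limit could be named. Values in each library are printed for 6 carriers, those called between LPS+Tβ4 and LPS, and the 4 with the smallest p of each role. Slc25a29 and Slc25a47 are printed in each library too, outside these rules. The carriers, role lists, companion lists and markers were chosen with earlier results of these data known. Motifs were searched before RefSeq starts (motifs of other factors were searched too and are not given), and overlapping exons taken from GENCODE M21, where 37 of 43 carriers have the same coordinates. No protein sequences were used. A few values are left out of the text and figures and are not reported here. Alternatives used DESeq2 1.42.0, limma 3.58.1 on log2 of the authors' FPKM plus 1 or 0.1, other filters and scalings, a urothelial covariate, a replicate block, the 6 libraries compared, and each library left out. Figures were drawn with matplotlib 3.10.9.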

Additional observations from a re-analysis of the deposited data

How the results depend on the processing

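Of the 26 carriers called between LPS and saline, 22 passed in every alternative setting that tested them (20, or 19 for carriers under 5 FPKM); of 16 between LPS+Tβ4 and saline 8 did, and of 8 between LPS+Tβ4 and LPS none did. No called carrier changed direction; 78 of 2550 values changed sign where neither fit called the carrier. For LPS against saline, a mean FPKM of at least 5 left 3754 genes called, from fewer genes tested. Leaving out 1 library gave 4884 to 6903 genes, 6 to 7 carriers higher and 16 to 20 lower. For LPS+Tβ4 against LPS, where 1025 genes were called, DESeq2 called 2442, no expression filter 647, the limit of 5 FPKM 638, the 6 libraries compared 3 and the replicate block 5, and 1 library left out 68 to 2672. Carriers called higher and lower there were 2 and 1 without the filter, 0 and 0 with 6 libraries (10 and 4 at an unadjusted p below 0.05), and 0 and 0 with the replicate block (8 and 3 unadjusted). Leaving out 1 library gave 0 to 9 higher and 0 to 3 lower; the 3 fits with none called, without LPS library 2 or LPS+Tβ4 library 1 or 2, had 7 and 4, 10 and 4, and 7 and 3 unadjusted. DESeq2 called 8 and 3. For LPS+Tβ4 against saline the limit of 5 FPKM gave 2268 genes, and 1 library left out 2119 to 4544 genes, 4 to 7 carriers higher and 4 to 16 lower. Carriers lower, 10 in the reported fit, were 6 without the filter, 6 with limma on log2(FPKM + 0.1) and 5 with the replicate block. They were 15 with DESeq2, 15 with the 6 libraries compared and 15 with the urothelial covariate. What made these counts differ between settings was not tested. On log2(FPKM + 1), limma moved the median of all genes by 0.118 and 0.179 in the 2 comparisons with saline, and the share of called carriers that were higher was 50% against 37.5% for LPS+Tβ4 against saline (53.8% with 0.1 added) and 62.5% against 75% for LPS+Tβ4 against LPS. No label says that the replicate numbers pair the mice. Same-numbered libraries correlated at -0.629 to 0.259 in their deviations from group means, and 6 of those 9 values were below 0. Differently numbered libraries correlated at -0.45 to 0.498, and with 3 mice per group such values cannot show whether the numbers pair the mice. With the block 6 carriers rose and 18 fell with LPS, and 6 and 5 against saline with LPS+Tβ4. In the simulated data, 1.5-fold changes were recovered least often, in 2.99%, 0% and 1.49% of cases. The simulation held fewer changed genes than were called in these data, which makes its adjusted threshold stricter. Its shares are therefore not the detection rate of small changes in these comparisons.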

Other observations

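Slc25a29 and Slc25a47 lie head to head on chromosome 12 (108825873 to 108835883 and 108836046 to 108856815, GRCm38), 162 bases apart. Slc25a29 was 1.07, 0.799 and 0.769 FPKM with saline, 4.14, 2.66 and 0.71 with LPS, and 1.21, 0.938 and 3.26 with LPS+Tβ4. Slc25a47, known from hepatocytes, was 1.18, 0.665 and 0.532, then 2.26, 0.916 and 1.01, and then 0.543, 0.836 and 2.03 FPKM. LPS library 1 and LPS+Tβ4 library 3 held the 2 highest values of Slc25a47 and, with LPS library 2, the 3 highest of Slc25a29, and neither gene passed in any comparison in edgeR.

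Of the 5 carriers under the level limit, Slc25a18, a glutamate carrier known from brain astrocytes, averaged 0.116 FPKM with saline, 0.255 with LPS and 0.887 with LPS+Tβ4; it was not tested. Its 3 highest libraries were the LPS+Tβ4 ones, which also held the highest sums of neuron and glia markers, from 67.9 to 93.1 FPKM.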
